A study of Danio rerio with 12 samples.

Results

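The pair of genes described here encode enzymes of the pentose phosphate pathway: tkt (ENSDARG00000029689, listed as TKT), the gene of a transketolase, and h6pd (ENSDARG00000060153, listed as H6PD), the gene of hexose-6-phosphate dehydrogenase. They are 2 of the 25473 genes in the deposited table and were taken by identifier, and both passed the filter on low counts that left 19493 genes. Polyadenylated RNA was measured in whole zebrafish larvae at 3 days post-fertilization, in 4 libraries from yap-/-;taz-/- larvae, which carry mutations in both genes (the double mutant), 4 from yap-/- larvae (the single mutant) and 4 from wild type (WT). Yap and Taz are transcriptional co-activators held in check by the Hippo kinases. The labels do not give the kind of mutation, the strain or how many larvae went into a library, nor whether libraries of 1 genotype came from separate clutches, so a p-value covers only the spread among libraries, which may be technical.

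The pentose phosphate pathway draws on glucose 6-phosphate. Its oxidative branch reduces NADP+ to NADPH, and its non-oxidative branch exchanges carbon between sugar phosphates and the intermediates of glycolysis, which lets a cell make or recycle the ribose 5-phosphate used in nucleotides. Transketolase, which depends on thiamine diphosphate, moves carbon units between sugar phosphates in the non-oxidative branch. Hexose-6-phosphate dehydrogenase carries out the first oxidative steps inside the endoplasmic reticulum, apart from the cytosolic enzymes, and in mammals its NADPH serves the enzyme that regenerates active glucocorticoid there.

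Each library held 7028251 to 8657381 counts. The upper limit behind a count of 0, which is 3 counts, came to 0.334 to 0.443 CPM. CPM are counts per 1000000 counts of a library, whose total was adjusted with TMM (trimmed mean of M values). YAP1 (ENSDARG00000068401) averaged 69.9 CPM in the double mutant, 59.9 CPM in the single mutant and 88.4 CPM in WT, with no mutant library inside the WT range. The Taz gene WWTR1 (ENSDARG00000067719) averaged 5.56 CPM in the double mutant, 10.4 CPM in the single mutant and 7.03 CPM in WT. It was lower in the double mutant than in the single mutant (-0.90 ± 0.17, log2 ± SE, edgeR adjusted p = 0.00673). Against WT the libraries of the double mutant overlapped and the difference did not pass the test (-0.35 ± 0.175, adjusted p = 0.156), while the single mutant was higher (0.56 ± 0.162, adjusted p = 0.0425, edgeR). That last call was lost in 10 of 18 alternatives (adjusted p = 0.053 to 0.122), which were no filter, the 8 libraries alone, and the fits without WT 2, WT 3, WT 4, single mutant 1, single mutant 2, single mutant 4, double mutant 2 or double mutant 3. A whole larva mixes all organs, so fewer cells of a type and less RNA per cell cannot be told apart in any value below.

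The RNA of tkt was lower in both mutants than in WT, and that of h6pd was higher. Both genes were selected on earlier gene-level values of these libraries, in which the difference of tkt between the single mutant and WT already stood. Their differences are therefore given as descriptions, with no test.

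The level of tkt was 81.0, 72.0, 92.5 and 69.1 CPM in double mutant libraries 1 to 4, 88.8, 103, 82.5 and 88.0 CPM in the single mutant and 132, 129, 124 and 134 CPM in WT. All 8 mutant libraries lay below all 4 WT libraries, with the highest of them, single mutant 2, still short of the lowest in WT, while the ranges of the mutants overlapped. Of all genes tested, 14.4% were likewise lower without overlap in the double mutant against WT and 5.36% in the single mutant. The means were 78.7 ± 10.5 CPM (SD, n = 4) in the double mutant, 90.7 ± 8.96 CPM in the single mutant and 130 ± 4.19 CPM in WT, and the double mutant held 60.6% and the single mutant 69.8% of the WT mean.

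The log2 fold change of tkt was -0.72 ± 0.0941 (SE) for the double mutant against WT, -0.52 ± 0.0934 for the single mutant against WT and -0.21 ± 0.0946 for the double mutant against the single mutant. The first 2 comparisons share their WT libraries. Among all genes tested, 5.9% were lowered further in the double mutant against WT and 4.03% in the single mutant against WT. Between the mutants 19.4% lay further down, and 10.8% of genes did not overlap (5.28% higher, 5.53% lower in the double mutant). The groups overlapped for tkt, since library 3 of the double mutant exceeded 3 of the 4 single mutant libraries. Between single mutant and WT libraries that share a replicate number, log2 CPM of tkt differed by -0.57, -0.32, -0.59 and -0.60. The shared sign adds nothing, since every single mutant library lay below every WT library. The mean of the double mutant was the lowest of the 3, followed by the single mutant. The ranges of the mutants overlapped each other but not that of WT.

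The level of h6pd was 54.9, 59.5, 55.9 and 58.8 CPM in double mutant libraries 1 to 4, 62.5, 60.8, 58.9 and 54.0 CPM in the single mutant and 43.5, 53.0, 47.9 and 36.4 CPM in WT. Every mutant library lay above every WT library, but narrowly, since WT 2 came close to single mutant 4. Of all genes 14.5% were likewise higher without overlap in the double mutant against WT and 7.93% in the single mutant. The means were 57.3 ± 2.23 CPM (SD, n = 4) in the double mutant, 59.1 ± 3.66 CPM in the single mutant and 45.2 ± 7.06 CPM in WT. The double mutant was thus at 127% and the single mutant at 131% of WT. The log2 fold change of h6pd was 0.34 ± 0.0982 (SE) for the double mutant against WT, 0.39 ± 0.0979 for the single mutant against WT and -0.04 ± 0.0972 for the double mutant against the single mutant. In the same 4 pairs of single mutant and WT libraries h6pd differed by 0.52, 0.20, 0.30 and 0.57 in log2 CPM. Among all genes 18.5% were raised further in the double mutant against WT and 12% in the single mutant against WT.

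**Figure D1:**
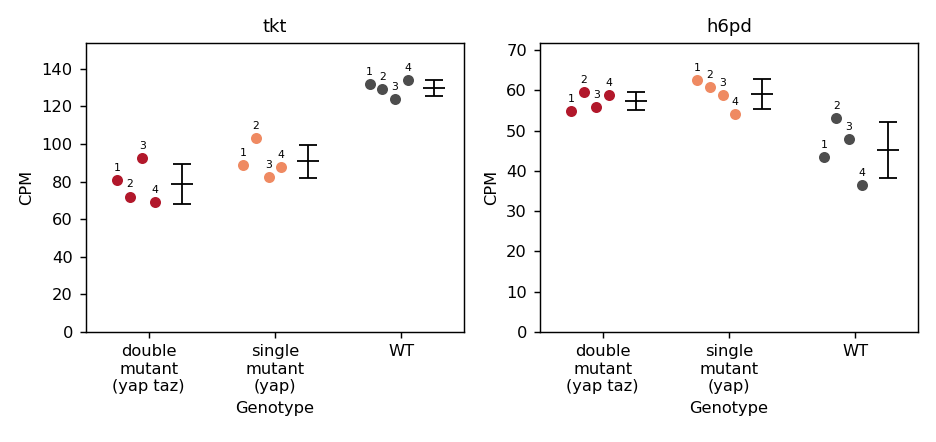
Level of tkt (left) and h6pd (right) in CPM, by genotype. Points are libraries with their replicate numbers, and the bar beside them gives the mean ± SD of 4 libraries. For tkt the mutant libraries sit between 69.1 and 103 CPM, all below WT, and for h6pd they sit between 54.0 and 62.5 CPM, all above WT.

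Beside the counting error, the spread between libraries was largest in the double mutant for tkt and in WT for h6pd. The coefficient of variation of tkt was 13.4% in the double mutant, 9.88% in the single mutant and 3.23% in WT, where counting error alone would give 4.14%, 3.75% and 3.04%. For h6pd it was 3.9% in the double mutant, 6.19% in the single mutant and 15.6% in WT, against 4.83%, 4.64% and 5.18% from counting. The WT libraries were thus nearly as close in tkt as counting allows, while in h6pd they ran from 324 counts in WT 4 to 403 in WT 2. The double mutant showed the reverse, with 512 to 669 counts of tkt, and h6pd spread no wider than counting error.

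A ratio of counts within a library does not depend on how libraries are scaled, though it is not per length of transcript, so only its change between libraries can be read. The counts of tkt over those of h6pd were 1.47, 1.21, 1.66 and 1.17 in double mutant libraries 1 to 4, 1.42, 1.7, 1.4 and 1.63 in the single mutant and 3.03, 2.44, 2.59 and 3.68 in WT. No mutant library came near the WT range, and the mutants overlapped each other. The separation from WT follows from the levels above, since tkt lay below and h6pd above WT in every mutant library. The mean ratio was 1.38 ± 0.228 (SD, n = 4) in the double mutant, 1.54 ± 0.149 in the single mutant and 2.94 ± 0.555 in WT. Of all counts on the 15 pathway genes considered here, tkt took 7.85% to 10.3% in the double mutant, 9.69% to 12.2% in the single mutant and 15.8% to 17.7% in WT. That share is no separate result, since it falls as the level of tkt does. TKTL2, described below, was in the same sum and lay above WT in every mutant library.

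The non-oxidative branch, where transketolase acts, held genes on both sides of WT. Of its 3 other genes, 2 rose and 0 fell in each mutant against WT: TKTL2, annotated as a transketolase-like gene, and TALDO1, the transaldolase that works beside transketolase. Calls were made at an adjusted p under 0.05 with edgeR's quasi-likelihood test. It called 27.7% of the 19493 genes in the double mutant against WT (13.9% higher, 13.8% lower). In the single mutant against WT it called 9.13% (5.72% higher, 3.41% lower), which is 1780 genes, or 2758 with the replicate number as a block. Between the double and the single mutant it called 4.18% (1.92% higher, 2.26% lower). Of the 3 other genes of the branch 0 were lower in either mutant against WT at an unadjusted p under 0.05 or with DESeq2. RPIA, the isomerase that makes ribose 5-phosphate, was measured at 43.9 to 55.6 CPM in the double mutant, 36.2 to 49.8 CPM in the single mutant and 39.6 to 48.6 CPM in WT. It passed the test in none of the 3 comparisons.

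TKTL2 (ENSDARG00000006019) was measured at 314, 417, 405 and 327 CPM in double mutant libraries 1 to 4, 399, 309, 312 and 354 CPM in the single mutant and 283, 240, 226 and 256 CPM in WT. Both mutants lay above WT in every library, the opposite side from tkt. It rose by 0.54 ± 0.11 in the double mutant against WT and by 0.45 ± 0.11 in the single mutant (log2 ± SE). The adjusted p was 0.00166 and 0.0188 (edgeR). The call in the single mutant was lost without WT 2, WT 3, single mutant 1 or single mutant 4 (adjusted p = 0.0506 to 0.0714). The RefSeq gene table used here lists a tkta and a tktb, the second also called tkt, without tying either to an Ensembl identifier. Whether reads of related transketolase genes could be counted to each other was not tested.

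Of the counts on tkt and TKTL2 together, tkt took 14.7% to 20.5% in the double mutant, 18.2% to 25.1% in the single mutant and 31.8% to 35.5% in WT. The mutant ranges lay wholly below WT, which follows from tkt lying below and TKTL2 above WT in every mutant library. The summed level of both genes, 395 to 498 CPM in the double mutant, 394 to 488 CPM in the single mutant and 350 to 415 CPM in WT, overlapped between the genotypes.

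**Figure D2:**
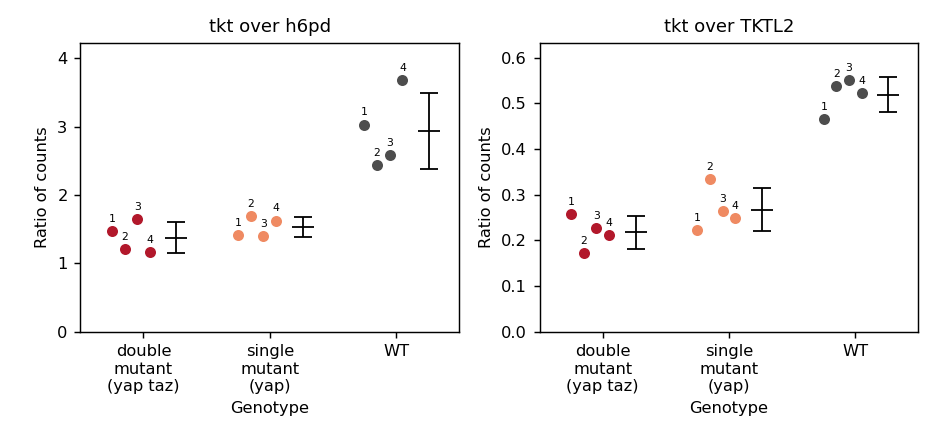
Ratio of counts within each library, tkt over h6pd (left) and tkt over TKTL2 (right), by genotype. Points are libraries with their replicate numbers, and the bar beside them gives the mean ± SD of 4 libraries. On the left the mutants reach at most 1.7 and WT starts at 2.44, and on the right the mutants reach at most 0.335 and WT starts at 0.466. Each gap follows from the levels of the genes in the ratio.

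TALDO1 (ENSDARG00000103369) was measured at 77.7, 88.4, 73.5 and 92.6 CPM in double mutant libraries 1 to 4, 84.1, 83.8, 72.5 and 72.9 CPM in the single mutant and 62.3, 71.3, 59.8 and 54.9 CPM in WT. It rose by 0.42 ± 0.0978 in the double mutant against WT (adjusted p = 0.00429, edgeR quasi-likelihood test). Its rise of 0.34 ± 0.0978 in the single mutant (adjusted p = 0.042) was lost in 10 of 18 alternatives (adjusted p = 0.0501 to 0.126). These were no filter, the 8 libraries alone, and the fits without WT 1, WT 3, WT 4, single mutant 1, single mutant 2, single mutant 4, double mutant 1 or double mutant 2.

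The oxidative branch in the cytosol runs beside h6pd in another compartment. Of 3 genes listed for it, with the gluconolactonase gene RGN among them, 0 rose and 2 fell in the double mutant against WT. That is 66.7% of them, beside 27.7% of all genes, with 0 higher at an unadjusted p under 0.05 or with DESeq2. In the single mutant against WT 0 rose and 0 fell with edgeR, 0 with DESeq2, and 1 was lower at an unadjusted p under 0.05. PGD (ENSDARG00000015343), which makes the second NADPH of the branch, was at 62.9 to 75.6 CPM in the double mutant, 70.9 to 82.4 CPM in the single mutant and 59.6 to 105 CPM in WT. Its WT range enclosed every mutant library. PGLS (ENSDARG00000021233), the lactonase of the branch, fell in the double mutant, to 6.44 to 9.72 CPM, against 9.77 to 13.6 CPM in WT (-0.54 ± 0.155, adjusted p = 0.0151, edgeR). That call was lost without WT 1 or double mutant 2 (adjusted p = 0.0518 to 0.0537). PGLS was at 8.14 to 9.76 CPM in the single mutant (adjusted p = 0.185 against WT). RGN (ENSDARG00000098645), a gluconolactonase gene, also fell in the double mutant (-0.59 ± 0.204, adjusted p = 0.0404, edgeR). It lost its call without WT 1, WT 2, WT 3, double mutant 2 or double mutant 4 (adjusted p = 0.0527 to 0.157). H6PD joins the dehydrogenase and lactonase steps in 1 protein, and in the double mutant its gene was higher than in WT while that of the separate cytosolic lactonase was lower.

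**Figure D3:**
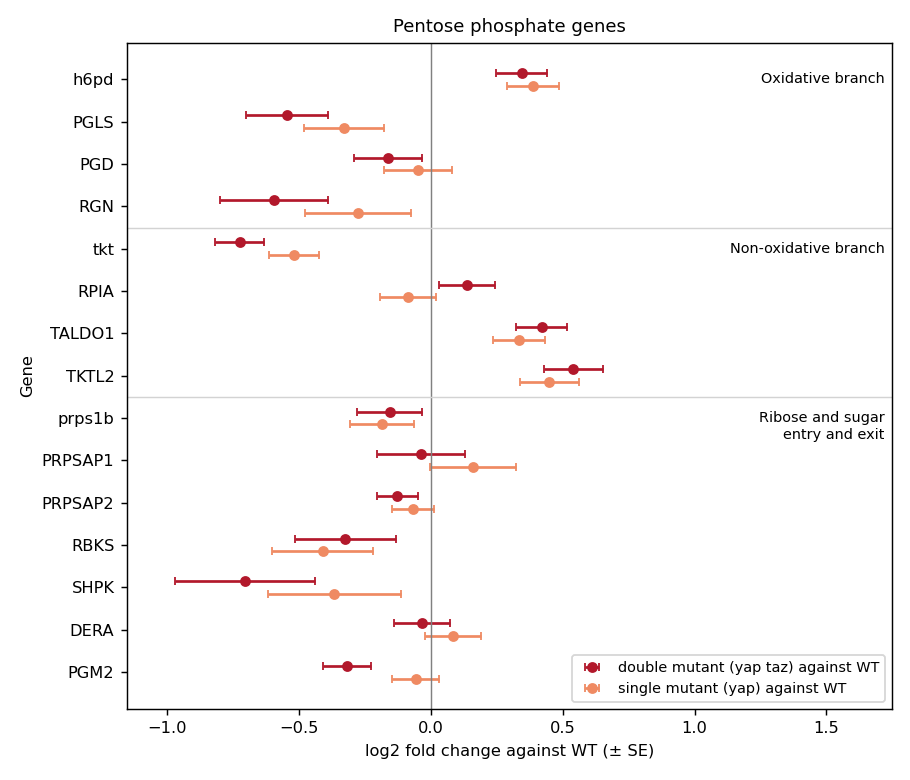
Log2 fold change against WT (horizontal axis, points with SE) of tkt, h6pd and 13 other pentose phosphate genes (vertical axis), for the double mutant (dark) and the single mutant (light). h6pd, TALDO1 and TKTL2 lie right of 0 and tkt left of it in both mutants.

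Of 7 genes that carry ribose and other sugars into or out of the pathway, 0 rose and 1 fell in the double mutant against WT. That is 14.3% of them, beside 27.7% of all genes. In the single mutant against WT 0 passed the test with edgeR or DESeq2, and 1 was lower at an unadjusted p under 0.05. Without single mutant 3, prps1b was called lower in the single mutant (adjusted p = 0.0436, edgeR), and without WT 4 a total of 2 genes fell in the double mutant. The gene that fell with all libraries was PGM2 (ENSDARG00000018178), whose product in mammals converts ribose 1-phosphate to ribose 5-phosphate. It was at 34.1 to 38.9 CPM in the double mutant, 42.1 to 46.0 CPM in the single mutant and 39.0 to 53.0 CPM in WT (-0.32 ± 0.091, adjusted p = 0.0156, edgeR, lost without WT 1 at adjusted p = 0.0596). SHPK, a kinase that forms the transketolase substrate sedoheptulose 7-phosphate, was low at 1.18 to 1.35 CPM in the double mutant, 1.27 to 2.16 CPM in the single mutant and 1.57 to 2.37 CPM in WT. Its adjusted p was 0.0591 for the double mutant against WT (edgeR). PRPS1L1 (ENSDARG00000015524), named like the synthetases that turn ribose 5-phosphate into phosphoribosyl pyrophosphate, lay outside the list and was chosen after its values were seen. It rose in the double mutant against WT (0.61 ± 0.139, adjusted p = 0.00353, edgeR), while the listed synthetase gene prps1b did not pass the test (-0.16 ± 0.122, adjusted p = 0.375).

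Taking 13 other genes of the pathway as 1 list, 2 rose and 3 fell in the double mutant against WT, which is 38.5% of them against 27.7% of all genes. In the single mutant against WT 2 rose and 0 fell, 15.4% against 9.13% (2 were lower at an unadjusted p under 0.05, and 0 with DESeq2). Both of those calls were lost without WT 3, single mutant 1 or single mutant 4. In the double mutant 2 genes were called without WT 1 and 3 without double mutant 2. Between the double mutant and the single mutant 0 passed the test with edgeR or DESeq2, with 1 at an unadjusted p under 0.05, against 4.18% of all genes. Their median log2 fold change was -0.16, -0.07 and -0.11 in the double mutant against WT, the single mutant against WT and the double mutant against the single mutant, beside medians of 0.00803, 0.00374 and -0.000956 over all genes tested.

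Glucose 6-phosphate of the endoplasmic reticulum is the substrate of h6pd. A list of 9 tested genes held transporters and phosphatases of this substrate together with enzymes that use NADPH or act on glucocorticoid at the same membrane. In the double mutant against WT 4 rose and 2 fell, 66.7% of the list beside 27.7% of all genes. Those that rose were the phosphatase genes g6pc1a.1 and G6PC1 (ENSDARG00000013721), POR and HSD11B2, which in mammals inactivates glucocorticoid. Those that fell were slc37a4b, named as a glucose 6-phosphate transporter, and hsd11b1la. Without WT 1, WT 4 or double mutant 2 only 2 rose, and 0 fell without WT 2 or WT 3. Without any 1 of WT 1, single mutant 1, single mutant 2 or a double mutant library 1 fell. In the single mutant against WT 2 rose, g6pc1a.1 and POR, and 0 fell, 22.2% of the list beside 9.13% of all genes. Lower in that comparison were 2 at an unadjusted p under 0.05, 0 with DESeq2, and 1 with the replicate block or without single mutant 3. The gene g6pc1a.1 (ENSDARG00000031616), a catalytic subunit of the glucose-6-phosphatase that uses the same substrate, was at 25.2, 28.4, 19.8 and 25.1 CPM in the double mutant, 24.6, 18.4, 17.2 and 21.0 CPM in the single mutant and 11.3, 10.3, 13.1 and 14.8 CPM in WT. It rose by 0.99 ± 0.146 in the double mutant and 0.71 ± 0.147 in the single mutant against WT (adjusted p = 0.000111 and 0.00704, edgeR quasi-likelihood test).

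POR (ENSDARG00000055092), the NADPH-cytochrome P450 reductase, which sits on the cytosolic face of that membrane, was at 82.2 to 95.2 CPM in the double mutant, 81.9 to 95.4 CPM in the single mutant and 64.0 to 73.2 CPM in WT. It rose in both mutants, by 0.41 ± 0.0774 in the double and 0.39 ± 0.0773 in the single mutant (log2 ± SE, adjusted p = 0.000955 and 0.00542, edgeR). The same symbol is carried by another gene of the table that did not pass the test. hsd11b1la (ENSDARG00000071377), a relative of the mammalian enzyme that takes the NADPH of hexose-6-phosphate dehydrogenase, fell in the double mutant, to 15.5 to 19.98 CPM, against 19.4 to 32.5 CPM in WT (-0.51 ± 0.148, adjusted p = 0.0165, edgeR). The call was lost without WT 2, WT 3 or double mutant 1 (adjusted p = 0.05003 to 0.063).

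**Figure D4:**
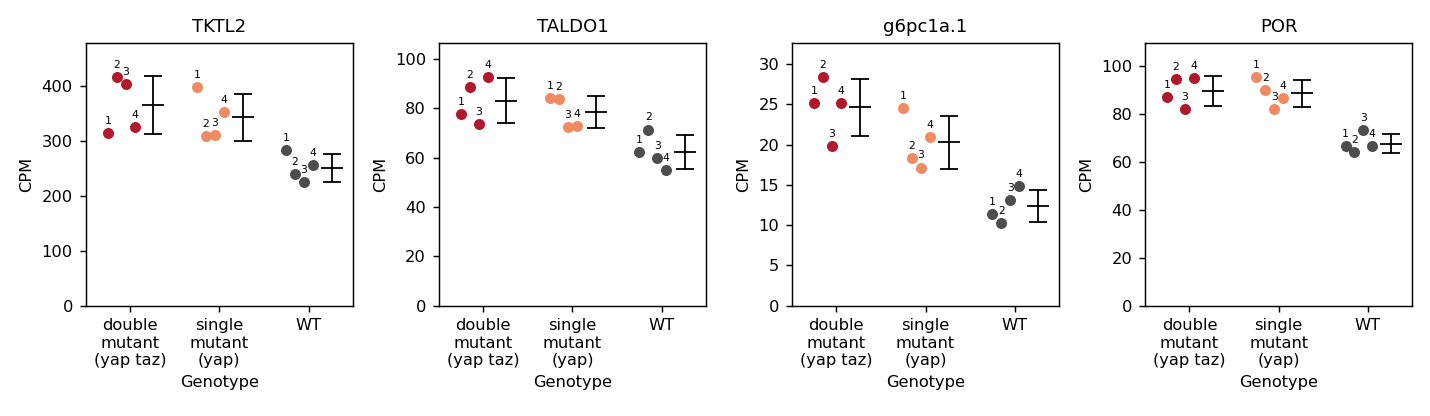
Levels in CPM of TKTL2, TALDO1, g6pc1a.1 and POR (ENSDARG00000055092) by genotype. Points are libraries with their replicate numbers, and the bar beside them gives the mean ± SD of 4 libraries. In each panel every mutant library lies above every WT library.

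The cytosol has its own users of glucose 6-phosphate. Of 13 such genes tested, 1 rose and 6 fell in the double mutant against WT (53.8% of them, beside 27.7% of all genes). In the single mutant against WT 1 rose and 2 fell (23.1%, beside 9.13% of all genes). Without WT 2 only 3 fell in the double mutant. Among the 6 was GPI (ENSDARG00000103826), one of a pair of genes with that symbol. It was at 6.05 to 8.77 CPM in the double mutant, inside the WT range of 4.15 to 33.0 CPM, with WT 4 lowest. Its call was lost without WT 2 (adjusted p = 0.0546, edgeR). The hexokinase gene HK2 was the one that rose in both (0.74 ± 0.113, adjusted p = 0.000159, and 0.49 ± 0.114, adjusted p = 0.0135, for the double mutant and the single mutant against WT, edgeR). HKDC1, a hexokinase-domain gene, and PFKM (ENSDARG00000060797), one of a pair of genes with that phosphofructokinase symbol, fell in both. Their log2 fold changes were -0.96 ± 0.169 and -0.92 ± 0.136 in the double mutant against WT. In the single mutant both calls were lost without WT 2, WT 3, single mutant 4 or the other 4 libraries of the series, that of HKDC1 also without single mutant 1 and that of PFKM also without single mutant 2 (adjusted p = 0.0536 to 0.117).

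Thiamine diphosphate, the cofactor of transketolase, is shared with a few other enzymes. Of 15 genes of thiamine uptake, activation and use other than tkt and TKTL2, 0 rose and 6 fell in the double mutant against WT. That is 40% of them, beside 27.7% of all genes. The single mutant had 0 risen and 1 fallen (6.67%, below the 9.13% of all genes). There 3 were lower without WT 4 or single mutant 3, and 2 with the replicate block. Upward, 2 were higher in the double mutant and 0 in the single mutant at an unadjusted p under 0.05, and 0 in either with DESeq2. ILVBL, a gene of this enzyme family, fell in both. It was at 25.5 to 31.2 CPM in the double mutant, 28.9 to 37.5 CPM in the single mutant and 41.8 to 63.8 CPM in WT (-0.86 ± 0.123, adjusted p = 8.75e-05, and -0.60 ± 0.121, adjusted p = 0.00597, edgeR). BCKDHA, of the branched-chain keto acid dehydrogenase, fell in the double mutant against WT (-0.36 ± 0.0785, adjusted p = 0.00299, edgeR).

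A list of other sources and users of NADPH also held NAD kinase genes. It gave 2 genes up and 4 down of 19 in the double mutant against WT, 31.6% beside 27.7% of all genes. The fallen numbered 1 without WT 2, WT 3, double mutant 1 or double mutant 2 and 2 without WT 1 or double mutant 4, and 1 rose without double mutant 3 or 4. Of the same genes 0 passed in the single mutant with edgeR or DESeq2 (2 higher and 1 lower at an unadjusted p under 0.05), with 1 lower under the replicate block and 1 higher without single mutant 3. IDH1, the cytosolic NADP+-linked isocitrate dehydrogenase, fell in the double mutant, to 64.0 to 66.8 CPM, against 87.3 to 150 CPM in WT (-0.80 ± 0.179, adjusted p = 0.00325, edgeR), and nadkb, an NAD kinase gene, rose (0.46 ± 0.0987, adjusted p = 0.00255).

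The oxidant-response factor Nrf2 in mammals controls pentose phosphate genes including transketolase. A list of 14 tested genes held the factor's own genes, its repressors and its targets. In the double mutant against WT 4 of them rose and 4 fell, 57.1% of the list beside 27.7% of all genes. Those that rose were the factor gene NFE2L2 (0.62 ± 0.0984, adjusted p = 0.000216, edgeR), its repressor gene KEAP1 (ENSDARG00000074634) and the targets NQO1 and HMOX1. Those that fell were the targets GCLC, GCLM, TXNRD3 and PRDX1, and 2 genes of the list fell without WT 2. The name PRDX1 is carried by another gene of the list, which was not called. Against WT the single mutant had 1 gene up, which was NFE2L2 itself (0.44 ± 0.0984, adjusted p = 0.011, edgeR), and 0 down. That is 7.14% of the list, below the 9.13% of all genes (1 lower at an unadjusted p under 0.05, 0 with DESeq2). With the replicate block or without single mutant 3 the counts were 2 up and 1 down, and without WT 2 there were 2 up. Between the double and the single mutant NQO1 alone was called, and it was higher in the double mutant.

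In a list of 10 genes that respond to glucocorticoid, 7 rose and 0 fell in the double mutant against WT, 70% beside 27.7% of all genes. In the single mutant against WT 2 rose and 0 fell, 20% beside 9.13% of all genes. In neither mutant was a gene of the list lower at an unadjusted p under 0.05 or with DESeq2. PCK1, the gluconeogenic phosphoenolpyruvate carboxykinase, averaged 630 ± 73.5 CPM in the double mutant, 335 ± 32.9 CPM in the single mutant and 135 ± 23.9 CPM in WT (SD, n = 4 each). The other call in the single mutant, DUSP1, a phosphatase of MAP kinases, was lost without WT 1, WT 3, WT 4, single mutant 1, single mutant 2 or single mutant 4 (adjusted p = 0.0676 to 0.106, edgeR), while the replicate block gave 5 genes. Between the double and the single mutant 3 were higher and 0 lower: PCK1 (0.91 ± 0.12, adjusted p = 0.000783, edgeR), DUSP1 (adjusted p = 0.0426) and tsc22d3 (adjusted p = 0.0486). DUSP1 and tsc22d3 lost this call without WT 1, any 1 library of the single mutant, or double mutant 2, 3 or 4 (adjusted p = 0.0505 to 0.159), and tsc22d3 also without WT 3, which leaves PCK1.

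Between the mutants, where 4.18% of all genes were called, the lists of the endoplasmic reticulum, thiamine, NADPH and cytosolic glucose 6-phosphate gave few calls. Counts were 0 up and 0 down among the genes of the endoplasmic reticulum, of thiamine and of NADPH. They were 0 up and 1 down among the cytosolic users of glucose 6-phosphate (2 down without single mutant 4). The gene down with all libraries was GPI (ENSDARG00000103826, -2.06 ± 0.422, adjusted p = 0.0111, edgeR). In the list of the endoplasmic reticulum 1 was higher in 8 of 18 alternatives, which were no filter, the 8 libraries alone, the replicate block, DESeq2, and the fits without WT 2, WT 4, single mutant 2 or double mutant 1. In that of NADPH 1 was higher with the block or without double mutant 2, and 1 was lower with the block, with DESeq2, or without WT 2 or WT 4. For the lists with no call edgeR gave 1 up and 0 down, 0 up and 4 down, and 3 up and 4 down at an unadjusted p under 0.05, and DESeq2 called 1, 0 and 1. The cell type markers below gave more calls. Lower were 5 of 14 lens and photoreceptor genes (35.7%, 4 to 6 genes over the alternatives). So were 2 of 8 intestinal genes (1 to 5) and 2 of 9 genes of dividing cells (1 to 6). Higher were 2 of 6 muscle genes (33.3%, 1 to 2 genes) and 2 of 10 hepatocyte genes (1 to 4). So were 1 of 6 myeloid genes (1 to 4) and 1 of 8 epidermal genes. With all libraries 0 genes of these lists went the other way.

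Markers of cell types moved with the genotypes as well. Beside the counts below, 13.9% of all genes tested rose and 13.8% fell in the double mutant against WT. In the single mutant against WT 5.72% rose and 3.41% fell. Of 9 genes of dividing cells 0 rose and 8 fell in the double mutant and 0 rose and 6 fell in the single mutant against WT, with 0 higher at an unadjusted p under 0.05 or with DESeq2. Their summed level was 569 to 634 CPM in the double mutant, 635 to 900 CPM in the single mutant and 925 to 1076 CPM in WT. That is the same order of genotype means as for tkt. The lens and photoreceptor and the intestinal markers below had this order too, so it was not particular to dividing cells. The summed lists of the oxidative branch, ribose, cytosolic glucose 6-phosphate, thiamine, NADPH and Nrf2 had it as well. The count in the single mutant was 2 or 3 without WT 1, WT 2, WT 3, single mutant 1, single mutant 2 or single mutant 4. Of 14 lens and photoreceptor genes 11 fell in the double mutant and 9 in the single mutant against WT, the second count being 4 or 5 without WT 2, WT 3, WT 4, single mutant 1 or single mutant 2. Their sums were 2264 to 2669 CPM in the double mutant, 2651 to 3235 CPM in the single mutant and 3992 to 4810 CPM in WT. Of 8 intestinal genes 7 fell in the double mutant and 2 in the single mutant against WT. Those 2 were ANPEP genes, and the count was 0 without WT 1, WT 3, single mutant 1 or single mutant 4 or with the 8 libraries alone, 1 without WT 2 or with DESeq2, and 5 with the replicate block. Their sums were 266 to 353 CPM in the double mutant, 317 to 835 CPM in the single mutant and 508 to 1437 CPM in WT.

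On the side of h6pd, 5 of 6 myeloid markers rose in each mutant against WT. Of all genes, 13.9% rose in the double mutant and 5.72% in the single mutant. The single mutant had 2 risen without WT 1, WT 2 or single mutant 4 or with the 8 libraries alone, and 3 without WT 3. The sixth gene, the lysozyme gene lyz, was chosen for naming after its values were seen. It did not pass the test in either mutant against WT (0.15, adjusted p = 0.61, in the double mutant and -0.55, adjusted p = 0.0906, in the single mutant, edgeR). In the single mutant it was lower at an unadjusted p under 0.05, and called lower with the replicate block or without WT 2. The 6 genes summed to 143 to 237 CPM in the double mutant, 67.6 to 164 CPM in the single mutant and 47.9 to 56.6 CPM in WT. Of 6 skeletal muscle markers 4 rose in the double mutant and 2 in the single mutant, with 2 in the double mutant without WT 1, WT 2, WT 3, double mutant 2, double mutant 3 or double mutant 4. They summed to 32873 to 45356 CPM in the double mutant, 31833 to 37742 CPM in the single mutant and 25927 to 29915 CPM in WT. For the myeloid and the muscle list the mean sum was highest in the double mutant, while the mean of h6pd was not. Hepatocyte markers were split, with 5 up and 3 down of 10 in each mutant against WT, and 1 down in the single mutant without WT 2, WT 3, single mutant 1 or single mutant 4. Their sums overlapped, at 6443 to 7377 CPM in the double mutant, 6282 to 7523 CPM in the single mutant and 6167 to 6752 CPM in WT. Of 8 epidermal markers 2 rose and 1 fell in the double mutant and 1 rose in the single mutant against WT. The single mutant had 0 to 2 and the double mutant 1 to 3 up and 0 to 2 down over the 18 alternatives, and leaving out any 1 of WT 1 to 4, single mutant 1 to 4, double mutant 1, 2 or 4 moved 1 or more of these counts. Their sums were 7582 to 14106 CPM in the double mutant, 8982 to 10578 CPM in the single mutant and 7155 to 10419 CPM in WT. None of the markers was at 0 in all libraries, and the part of these cell types in the levels of tkt and h6pd was not tested.

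Likeness of level was measured as Pearson r of log2 CPM over the 12 libraries, among 15866 genes whose log2 CPM averaged 1 or more. Left out were tkt and h6pd, genes without a symbol, and symbols that begin as clone, locus or fam names do. The genes closest to tkt were DPYS, which encodes dihydropyrimidinase of pyrimidine breakdown (r = 0.954), mgll, a monoacylglycerol lipase gene (0.948), cyp46a1.1, a cytochrome P450 gene (0.938), POSTN (ENSDARG00000043806), the matrix protein periostin (0.934), and BMP1 (ENSDARG00000028053), a procollagen protease gene (0.933). For h6pd they were CFAP298, a cilia gene (0.924), MUSTN1, a musculoskeletal nuclear protein gene (0.924), PLG, the plasminogen gene (0.922), GPR157, a receptor gene (0.921), and cfbl, a complement factor B-like gene (0.918). The libraries fall into 3 genotypes, which these values share. For deviations from the genotype means alone, r was 0.763, 0.921, 0.589, 0.68 and 0.76 for the genes set beside tkt and 0.83, 0.772, 0.755, 0.874 and 0.867 for those set beside h6pd, in the same order. Of these, mgll had the highest r with tkt within genotypes, and GPR157 with h6pd. The genes were picked by r over these same libraries, so the values within genotypes are raised by that choice as well.

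PLG, a plasma protein gene made by the liver, was at 163 to 185 CPM in the double mutant, 159 to 190 CPM in the single mutant and 107 to 143 CPM in WT, with WT 4 lowest as in h6pd. DPYS, by contrast, was at 10.3 to 15.5 CPM in the double mutant, 11.01 to 17.3 CPM in the single mutant and 21.8 to 26.5 CPM in WT.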

How the data were processed

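The authors' deposited table gives whole-number counts for each Ensembl gene in 12 libraries, unscaled. Alignment and counting used STAR 2.3.0e and HTSeq 0.6.0, per the submitters' processing notes. The build, the annotation and whether counting used strand are not given in the sources here, and coordinates and sequences were not used. Groups were read from titles. A table of names gave symbols to 22531 of 25473 identifiers.

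Counts were analysed with edgeR 4.0.16 (R 4.3.3). After filterByExpr (counts of 10 per library and 15 in total, by genotype) and TMM scaling, 1 model without a block took in all libraries, with a term for each genotype. Quasi-likelihood p-values, two-sided, were adjusted by Benjamini-Hochberg over 19493 genes. Fold changes (log2, mutant over WT or double over single mutant) carry the model's SE. Levels are CPM, on the log2 scale with a prior count of 2. With 7028251 to 8657381 counts per library, limits cover counting error only. The procedure was tested on simulated data.

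The genes and the 16 lists (162 symbols, 145 matched) were chosen with earlier results of these data known. Named were tkt and h6pd, all listed pathway genes (1 gene of the pathway is not reported here), YAP1 and WWTR1, up to 3 called genes of every other list by smallest p, and the 5 genes most alike to each member, with values for part of these.

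Libraries with the same replicate number in their titles were checked for deviating together from their group means. Correlations were 0.18, 0.306, 0.282 and 0.388 between the single mutant and WT, all above the 0.1 that marks a pair. They were 0.166, 0.103, 0.0717 and -0.00482 between the double mutant and WT. Between the mutants they were 0.0512, -0.00323, 0.0648 and 0.0206, none above that mark. Alternatives were RLE scaling, other low-count filters (none, or 1 CPM in 4 libraries or more), a comparison's own 8 libraries, the replicate block, DESeq2 1.42.0 and each library left out.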

Additional observations from a re-analysis of the deposited data

Results flagged for a closer look

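In 60 groups of 4 libraries checked for 1 library far from the others, 3 were found, about as many as the 1 in 20 that chance gives, and neither tkt nor h6pd was among them. PRPSAP1 stood at 8.54 CPM in double mutant 2, above 7.38 to 7.54 CPM in the other 3 libraries of that genotype. SHPK stood at 1.18 CPM in double mutant 2, below 1.33 to 1.35 CPM in the other 3. SHPK also stood at 1.57 CPM in WT 4, below 2.24 to 2.37 CPM in the other 3 WT libraries, and without WT 4 its fall in the double mutant against WT passed the test (adjusted p = 0.0348, edgeR).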

How the results depend on the processing

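The log2 fold changes of tkt and h6pd moved by less than the pooled spread of libraries (0.138 and 0.146, SD of log2 CPM) under all 18 alternatives. For the fits that left out 1 library this could hardly have come out otherwise. Leaving out 1 library moves a group mean by only part of that spread. Leaving out 1 library at a time gave -0.81 to -0.67, -0.59 to -0.48 and -0.29 to -0.14 for tkt, and 0.25 to 0.43, 0.30 to 0.47 and -0.08 to -0.02 for h6pd, in the double mutant against WT, the single mutant against WT and the double mutant against the single mutant. With the replicate number as a block, genes called came to 2758 (single mutant against WT) and 1443 (double mutant against the single mutant), against 1780 and 814 without it. Among the named genes followed singly through the alternatives, none called without the block lost its call with it. Not followed singly were G6PC1, HSD11B2, slc37a4b, KEAP1, GCLC, GCLM, TXNRD3 and PRDX1. Between the mutants, where the numbers did not pair, falls of dividing-cell and intestinal markers numbered 6 and 5 with it, against 2 and 2 without it, and rises of myeloid and hepatocyte markers 4 and 4, against 1 and 2. The 8 libraries of WT and the single mutant alone gave 1163 genes. Leaving out 1 library at a time, the counts were 942 to 3041 for the single mutant against WT, with 942 to 1076 without WT 2, WT 3, single mutant 1 or single mutant 4 and 3041 without single mutant 3. Between the mutants they were 441 to 1087, with 468 and 538 without single mutant 2 and 3 and 441 and 497 without double mutant 2 and 4. Other pathway genes called numbered 2 to 6 (5 with all libraries) in the double mutant against WT and 0 to 3 (2 with all libraries) in the single mutant against WT in the same way, and 1 in the single mutant against WT with no filter or with the 8 libraries alone. The cause was not tested. Leaving out 1 library at a time turned the sign of uncalled genes: in the double mutant against WT PRPSAP1 (-0.16 to 0.054), PGD (-0.27 to 0.0051) and DERA (-0.086 to 0.026), in the single mutant against WT PGM2 (-0.13 to 0.022) and PGD (-0.16 to 0.12), and between the mutants prps1b (-0.045 to 0.17) and RBKS (-0.058 to 0.18).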
